A study of Mus musculus with 6 samples.

Results

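The complement genes described here are 8 in number: properdin (Cfp), the 3 chains of C1q (C1qa, C1qb and C1qc), the central component C3, factor B (Cfb) and the receptors for the anaphylatoxins, C3ar1 and C5ar1. They were taken by name, and all 8 had a named probe set among the 16387 named genes of the table. The members were chosen by function with earlier results of these arrays in view, and the measured values behind the choice were the Cfp readings, low on the arrays numbered 3 in both clones, so the comparison of number 3 with numbers 1 and 2 is given as a description with no test. RAW264.7 is an established mouse macrophage line. The vector clone (clone 3) had been transfected with the empty expression vector and the Ms4a8a clone (clone 8) with the same vector carrying a recombinant Ms4a8a cDNA. Both had been selected with blasticidin and cultured for 48 h in DMEM with fetal calf serum, antibiotics, pyruvate and non-essential amino acids. Each clone was measured on 3 arrays, numbered 1 to 3 in the titles, and each arm is 1 clone, so the transgene cannot be told apart from other differences between the clones. The labels do not say whether a clone's arrays are separate cultures.

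Complement is a cascade of plasma proteins that coats targets for uptake and lyses membranes. It starts on antibody-bound C1q in the classical pathway, on sugar patterns in the lectin pathway, and by spontaneous C3 turnover in the alternative pathway, where factor B forms the convertase and properdin stabilises it. Most plasma complement comes from the liver, but macrophages are a source of C1q, and properdin is made mainly by myeloid cells. Cleavage of C3 and C5 releases C3a and C5a, which act on C3ar1 and C5ar1.

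Levels are log2 values of the authors' deposited table, in which 1 unit is a 2-fold difference. Ms4a8a itself read 3.07 to 3.32 in clone 3 and 7.40 to 8.15 in clone 8. All 10 macrophage markers examined lay above the level of the median gene on average over the arrays, and none of the 28 measured markers of hepatocytes, granulocytes and mast cells, B cells, T cells, fibroblasts and epithelium did (range 2.50 to 5.62). Number 3 stood apart in both clones. All 12 measured proliferation genes read lower there than the mean of numbers 1 and 2 in both clones (medians -1.24 and -2.09, vector clone first), and all 10 macrophage markers read higher (medians 0.86 and 0.92). Of the control sets, the 3 prime minus 5 prime difference of Actb was 0.62 and 0.45 on the arrays numbered 3 and 0.12 to 0.17 on the others, and that of Gapdh was -0.12 and -0.06 against -0.19 to -0.16. The part of these differences in the readings of number 3 given below was not tested.

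**Figure D1:**
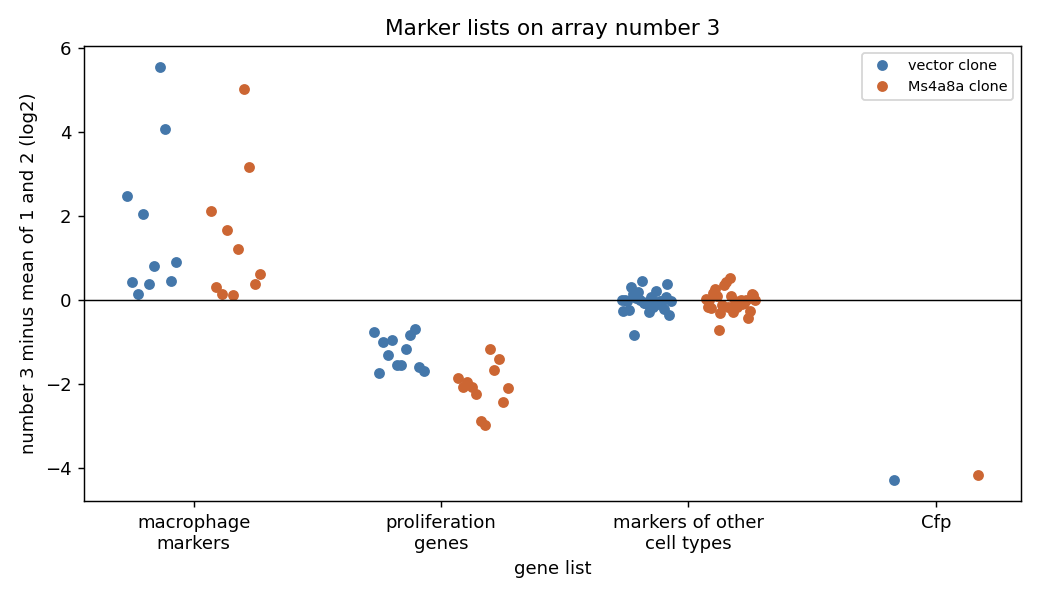
The level of array number 3 minus the mean of numbers 1 and 2 (log2, vertical axis) is plotted for each gene of the marker lists and for Cfp, with 1 point per gene and clone. All 10 macrophage markers lie above 0 and all 12 proliferation genes below it in both clones, the markers of other cell types scatter around 0, and Cfp lies at -4.30 and -4.18.

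The start regions of the 4 members that differed most between array numbers are shown first, since Cfp read lower on number 3 and C3, C3ar1 and C5ar1 higher. Each window runs from 250 bases before to 50 bases after the RefSeq gene start on GRCm38.p6, 5′ to 3′ on the strand of the gene, which is the minus strand for all 4. Of the 8 members, 6 had a window in the table used. No window was given for C1qa and Cfb. Capitals mark matches, on either strand, to GAGGAA (a purine box of the kind bound by the myeloid factor PU.1), TGANTCA (AP-1) and TTGCNNAA (C/EBP type). No marked match overlapped another.
Cfp, chrX:20931506-20931805: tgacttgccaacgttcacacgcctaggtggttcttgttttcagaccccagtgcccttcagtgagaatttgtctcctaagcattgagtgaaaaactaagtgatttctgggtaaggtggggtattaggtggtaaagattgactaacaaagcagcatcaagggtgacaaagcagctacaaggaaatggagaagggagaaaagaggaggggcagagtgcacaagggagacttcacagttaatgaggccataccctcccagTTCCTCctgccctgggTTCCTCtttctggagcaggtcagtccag
C3, chr17:57228087-57228386: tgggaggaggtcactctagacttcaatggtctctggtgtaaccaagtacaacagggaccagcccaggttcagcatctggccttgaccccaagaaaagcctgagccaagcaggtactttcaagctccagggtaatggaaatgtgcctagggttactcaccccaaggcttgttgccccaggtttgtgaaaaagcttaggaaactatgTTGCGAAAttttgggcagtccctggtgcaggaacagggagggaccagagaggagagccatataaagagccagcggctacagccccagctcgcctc
C3ar1, chr6:122856108-122856407: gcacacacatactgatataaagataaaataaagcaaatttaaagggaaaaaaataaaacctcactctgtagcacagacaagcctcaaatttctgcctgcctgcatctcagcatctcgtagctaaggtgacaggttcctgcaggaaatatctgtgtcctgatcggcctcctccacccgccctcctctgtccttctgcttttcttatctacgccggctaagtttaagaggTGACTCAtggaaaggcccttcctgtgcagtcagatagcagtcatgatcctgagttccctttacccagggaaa
C5ar1, chr7:16259289-16259588: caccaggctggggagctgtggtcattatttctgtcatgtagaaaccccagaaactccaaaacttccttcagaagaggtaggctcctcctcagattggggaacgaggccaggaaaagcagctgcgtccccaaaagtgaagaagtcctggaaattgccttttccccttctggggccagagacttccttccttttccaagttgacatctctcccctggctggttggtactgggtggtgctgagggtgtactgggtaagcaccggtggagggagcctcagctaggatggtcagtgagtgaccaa
The Cfp window held GAGGAA 2 times, both on the opposite strand, at bases 7 to 12 and 23 to 28 after the start. C1qb and C1qc held it 1 time each. The C3 window held TTGCNNAA from base -45 to -38 and the C3ar1 window TGANTCA from base -22 to -16, while none of the 3 motifs was found in the C5ar1 window. Of all 32851 windows of this length, 28.3% held GAGGAA, 7.81% TGANTCA and 10.8% TTGCNNAA. A match is a description of the letters and not a measured binding site.

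Properdin was the member with the widest range. Cfp read 10.0, 10.7 and 6.06 on arrays 1, 2 and 3 of the vector clone. For the Ms4a8a clone the readings were 9.01, 9.87 and 5.26. Both arrays numbered 3 lay far below the other 4, and within each clone number 2 lay above number 1, by 0.69 and 0.86. Against the mean of numbers 1 and 2, number 3 was 19.7-fold lower with the vector (log2 difference -4.30) and 18.1-fold lower with Ms4a8a (-4.18). Of the 16387 genes, 0 had a larger drop than Cfp when each gene was ranked by the smaller of its drops in the clones. The lowest value of the table was 2.24 and the median gene averaged 6.05. Many genes therefore started too low to show a drop of that size. Cfp was the 1 member at least 1 log2 unit lower on number 3 in both clones, a limit that 2.8% of all genes passed (459 genes). In RNA from whole cultures, fewer cells with the transcript and less of it per cell cannot be told apart. These readings led to the choice of the genes and support nothing by themselves. Both drops kept their size with cyclic loess scaling (-4.22 and -4.15). That scaling moved the median of no array by more than 0.05 in a table already quantile normalised, so it could change little.

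**Figure D2:**
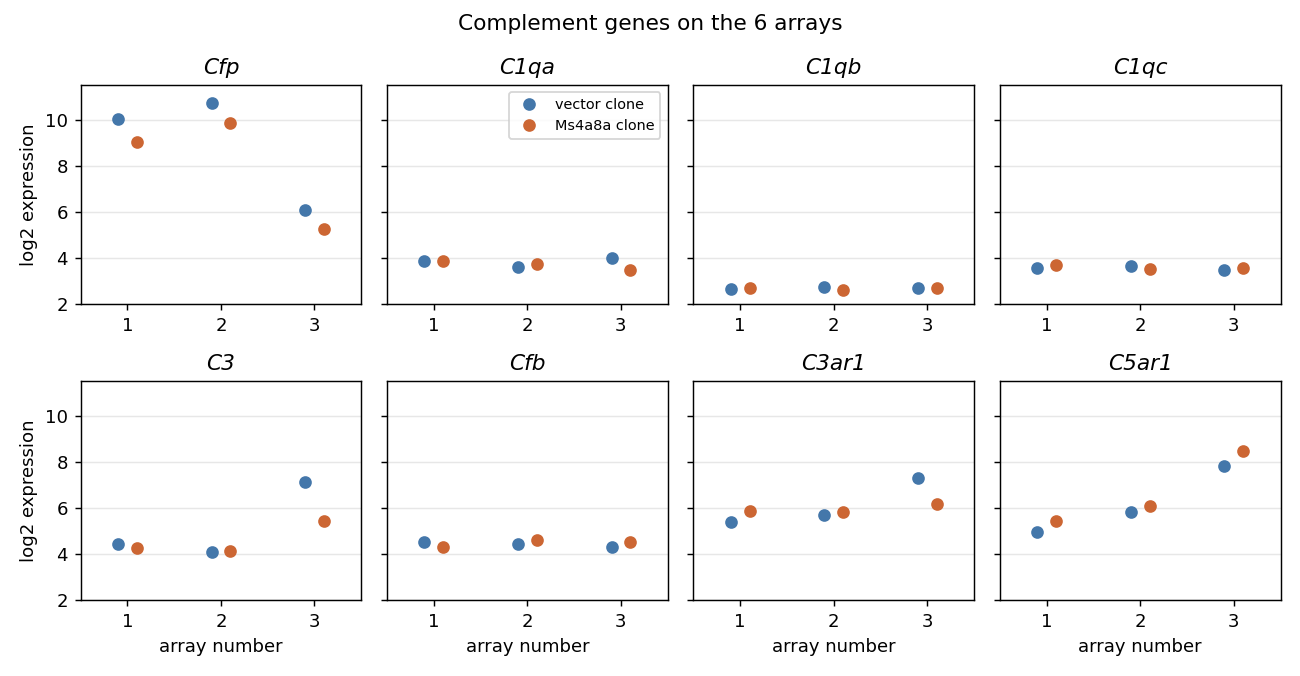
The log2 level of each of the 8 genes (vertical axis) is plotted against the array number, with 1 point per array and the clones in separate colours. Cfp reads between 9.01 and 10.7 on numbers 1 and 2 and 6.06 and 5.26 on number 3, C3, C3ar1 and C5ar1 read higher on number 3, and the C1q chains and Cfb stay between 2.64 and 4.59 on all arrays.

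Between the clones, Cfp read lower in the Ms4a8a clone at each of the 3 array numbers, by a log2 difference of -1.01 at number 1, -0.84 at number 2 and -0.80 at number 3. The vector arrays averaged 8.93 ± 2.51 (SD, n = 3) and those of the Ms4a8a clone 8.05 ± 2.45 (SD, n = 3), and the ranges overlap because of number 3. The mean difference was -0.88, a 1.85-fold lower level. In limma without a block it did not pass (SE 1.68, 95% interval -5.04 to 3.27, adjusted p = 1.00), and its sign turned without vector array 2 (0.0050) or Ms4a8a array 3 (0.51). With the array number as a block Cfp fell (SE 0.08, 95% interval -1.08 to -0.69, adjusted p = 0.0126). It was the 1 of 8 members called in that fit, which called 0.909% of all genes (149 genes, 74 of them, or 0.452% of all genes, lower). Without a block 0 of 8 members passed, and 0.0427% of all genes did (7 genes). The members at an unadjusted p under 0.05 numbered 0 without the block and 2 with it (25%), against 3.2% and 13.3% of all genes. The blocked call held without both arrays of number 1, 2 or 3 (adjusted p = 0.0431, 0.0470 and 0.00733), in fits that called 101, 104 and 434 of all genes. These fits share arrays and keep few of them, so their p-values lean on the variance that limma borrows from all genes. With all arrays, the blocked call was lost when numbers 1 and 2 of the Ms4a8a clone were exchanged (adjusted p = 0.321). In deviations from the clone means across genes, vector array 1 correlated about equally with Ms4a8a arrays 1 (0.709) and 2 (0.713), while vector array 2 correlated more closely with Ms4a8a array 2 (0.809) than with array 1 (0.617), as the titles number them.

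**Figure D3:**
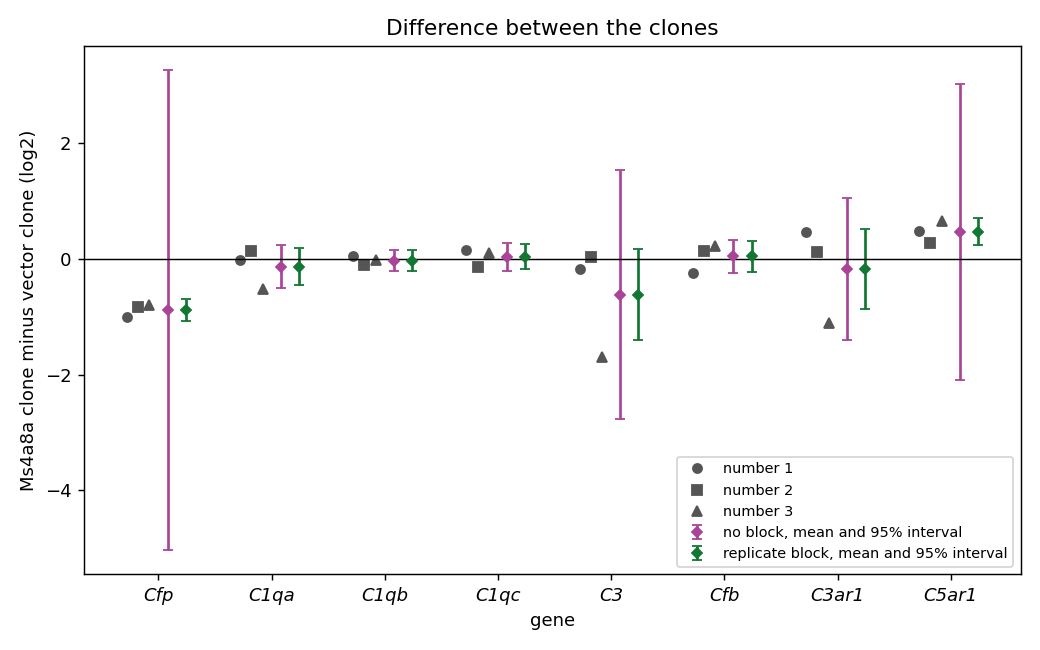
The Ms4a8a clone minus the vector clone (log2, vertical axis) is plotted for each of the 8 genes at each array number (grey points), with the mean and 95% interval without a block and with the array number as a block. For Cfp the 3 differences lie between -1.01 and -0.80 and the interval narrows from -5.04 to 3.27 without the block to -1.08 to -0.69 with it, and the blocked interval of C5ar1 runs from 0.24 to 0.70.

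C3, whose cleavage is shared by all 3 pathways, read higher on number 3, opposite to Cfp. Vector arrays 1, 2 and 3 read 4.45, 4.11 and 7.14, against 4.27, 4.14 and 5.44 for the Ms4a8a clone. The clones lay within 0.18 of each other at numbers 1 and 2, and at number 3 the Ms4a8a clone was 1.70 lower. Every C3 reading but that of vector array 3 lay inside the range of the markers of other cell types (2.50 to 5.62). Close values at such low levels do not show equal expression, and the fold values given next start from them. Number 3 was above the mean of numbers 1 and 2 by 2.86 with the vector (7.28-fold) and by 1.24 with Ms4a8a (2.36-fold), and that gap between the clones was not tested. The clone means were 5.23 ± 1.66 and 4.62 ± 0.72 (SD, n = 3 each), a difference of -0.62 that did not pass (95% interval -2.77 to 1.54, blocked -1.40 to 0.17, blocked adjusted p = 0.489). It was 0.34 without vector array 3 alone and -0.076 without both arrays of number 3.

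Of the anaphylatoxin receptors, C5ar1 read 4.96, 5.82 and 7.81 in the vector clone. The Ms4a8a clone had 5.44, 6.10 and 8.46. Number 3 was the highest array in both, by 2.42 (5.35-fold) and 2.69 (6.46-fold) over the mean of the others, and 56 genes ranked above it by the smaller of the rises in the clones. The Ms4a8a clone was higher at all 3 numbers, by 0.48, 0.28 and 0.65. The mean difference of 0.47 did not pass (95% interval -2.09 to 3.04, adjusted p = 1.00), and it was -0.15 without vector array 1 and -0.42 without Ms4a8a array 3. With the block its interval was 0.24 to 0.70, with an unadjusted p = 0.00250 and an adjusted p = 0.107.

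C3ar1, the receptor for C3a, read 5.39, 5.71 and 7.28 on the vector arrays, against 5.86, 5.83 and 6.17 for the Ms4a8a clone. Only the vector array numbered 3 stood clear of the other 5. The number 3 array was above the mean of the others by 1.72 with the vector (3.30-fold) and by 0.33 with Ms4a8a (1.26-fold), again a gap that was not tested. The clone difference was 0.47 and 0.12 at numbers 1 and 2 and -1.10 at number 3, with a mean of -0.17 (95% interval -1.40 to 1.05, blocked -0.87 to 0.52, blocked adjusted p = 0.863). Without vector array 3 the difference was 0.40. C3 and C5ar1 were the 2 members at least 1 log2 unit higher on number 3 in both clones, and 3.73% of all genes passed that limit (612 genes).

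**Figure D4:**
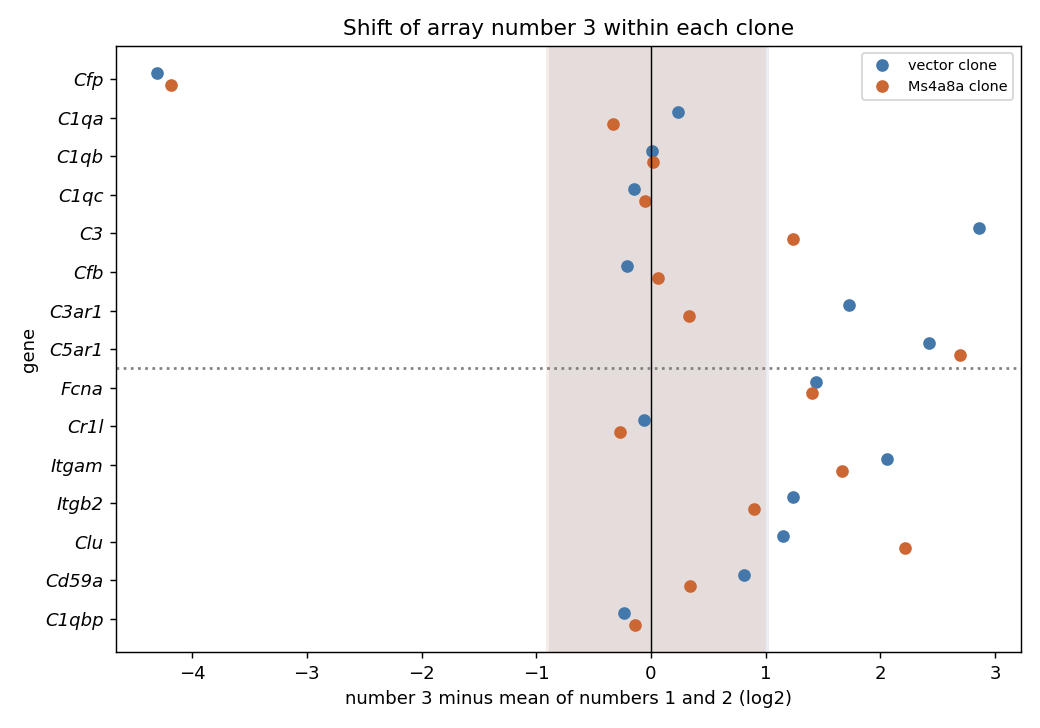
Array number 3 minus the mean of numbers 1 and 2 (log2, horizontal axis) is plotted for the 8 genes (above the dotted line) and 7 further complement genes, with 1 point per clone. The shaded bands run from the 5th to the 95th percentile of all genes in each clone (-0.89 to 1.03 for the vector, -0.92 to 1.00 for Ms4a8a). Cfp lies far to the left of the bands and C3, C5ar1, Fcna, Itgam and Clu to the right in both clones.

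The C1q chains, which form the recognition molecule of the classical pathway and are encoded by 3 genes with 0 other protein-coding genes between them on chromosome 4, read low on every array. C1qa lay between 3.48 and 3.99, C1qb between 2.64 and 2.75 and C1qc between 3.46 and 3.71, all inside the range of the markers of other cell types. Probe sets differ in brightness and no detection call was used, so these low values do not show that the transcripts were absent. With levels that close to the lowest value of the table (2.24), a drop the size of that of Cfp could not have been read from the C1q probe sets. Their differences on number 3 were 0.24, 0.01 and -0.15 in the vector clone, against -0.33, 0.02 and -0.05. Between the clones C1qa differed by -0.13 (95% interval -0.50 to 0.24), C1qb by -0.03 (-0.21 to 0.16) and C1qc by 0.04 (-0.20 to 0.27), and none passed.

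Factor B, the protease of the alternative pathway convertase that properdin stabilises, also read low, so a drop the size of that of Cfp could not have been read from its probe set either. Cfb was 4.54, 4.44 and 4.29 on the vector arrays, against 4.31, 4.59 and 4.51 for the Ms4a8a clone. The clones overlapped, with a difference of 0.04 (95% interval -0.24 to 0.33), and number 3 differed by -0.21 and 0.06 from the mean of the others. A shift of over 1 log2 unit on number 3 was seen for Cfp, downward, and for C3 and C5ar1 (and C3ar1 in the vector clone), upward, while the C1q chains and Cfb lay within 0.33 of the mean of numbers 1 and 2.

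Of 47 further complement genes listed by role, 38 had a named probe set, and 0 passed between the clones in either fit with all arrays. At an unadjusted p under 0.05 there were 0 without the block and 4 with it (10.5%), against 3.2% and 13.3% of all genes. The median clone difference was 0.02, against -0.005 over all genes. Of these genes 7 lay at or above the median gene on average. All 6 measured genes of the terminal pathway and Cfd, the activating protease of the alternative pathway, lay below it. On number 3, 0 of 38 read at least 1 log2 unit lower in both clones, against 2.8% of all genes. Another 3, namely Fcna, Itgam and Clu, read at least that much higher, against 3.73%. The median shift over the list was -0.02 in each clone. Many of the 38 read close to the lowest value of the table (2.24), where a drop of 1 unit could hardly have been read. The count of 0 is therefore not a contrast with Cfp.

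Fcna, the lectin-pathway recognition protein ficolin A, read 7.65, 7.73 and 9.13 with the vector, against 7.70, 7.35 and 8.93 with Ms4a8a. Both arrays numbered 3 were above the other 4, by 1.44 and 1.40 over the means, and the clones overlapped (difference -0.18, blocked adjusted p = 0.535). Itgam, the alpha chain of complement receptor 3, read 7.57, 7.02 and 9.36 against 7.15, 6.19 and 8.33, lower in the Ms4a8a clone at all 3 numbers (difference -0.76, blocked adjusted p = 0.0669, or 0.0335 without both arrays of number 1). Its partner chain Itgb2 read 10.5, 10.5 and 11.7 against 11.2, 10.8 and 11.9. Itgb2 was higher in the Ms4a8a clone at all 3 numbers (difference 0.40, blocked adjusted p = 0.238). The blocked fit without number 1, in which Itgam passed, called 101 of all 16387 genes and 1 of the 38 listed genes.

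Among the regulators, Clu (clusterin, an inhibitor of the membrane attack complex) read 7.02, 6.92 and 8.12 with the vector, against 8.25, 7.82 and 10.2 with Ms4a8a. It was higher in the Ms4a8a clone at every number, by 1.42 on average, which did not pass with all arrays (95% interval -0.32 to 3.15, blocked adjusted p = 0.0625). It passed on numbers 1 and 2 alone (difference 1.06, adjusted p = 0.0481, blocked 0.00835). It also passed in the blocked fit without both arrays of number 2 (difference 1.68, adjusted p = 0.0381). In the same order, these fits called 147, 434 and 104 of all 16387 genes, and 1 of the 38 listed genes each. The membrane regulators Cr1l (Crry, which limits convertases on mouse cells) and Cd59a (which blocks the membrane attack complex) differed by -0.16 and 0.37, with blocked adjusted p-values of 0.488 and 0.493. C1qbp, a mainly mitochondrial protein first described as a C1q binder, read 13.3 to 13.5 on all arrays (difference -0.06, blocked adjusted p = 0.785).

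The genes whose profile lay nearest to that of Cfp over the 6 arrays were Ccne2, Tfrc, Rbm3, Id3 and Tk1. Likeness was measured as the root-mean-square difference between profiles after each gene's own mean was taken off, and it was 0.54, 0.56, 0.72, 0.74 and 0.75 log2 units. Ccne2, cyclin E2, differed on number 3 from the mean of the others by -3.12 with the vector and by -4.00 with Ms4a8a. For Tfrc, the transferrin receptor, the differences were -3.28 and -3.61, and for Rbm3, a cold-inducible RNA-binding protein, -3.63 and -3.45. Id3, an inhibitor of basic helix-loop-helix factors, had -3.21 and -4.09, and Tk1, the thymidine kinase of S phase, had -2.45 and -3.56. These 5 genes were picked for likeness to a profile dominated by its drop on number 3, so their own drops there follow from that choice. None of the 5 reached the drop of Cfp in either clone. On number 3, however, Rbm3 (3.64 and 4.03) and Id3 (5.22 and 4.94) read inside the range of the markers of other cell types (2.50 to 5.62). So did Cfp in the Ms4a8a clone (5.26), and the size of such drops may be limited by the low levels reached. The mean of the C1q chains was so flat that its nearest profiles (Col4a3, Efnb3 and Atf6, at 0.01 log2 units each) were other flat genes.

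**Figure D5:**
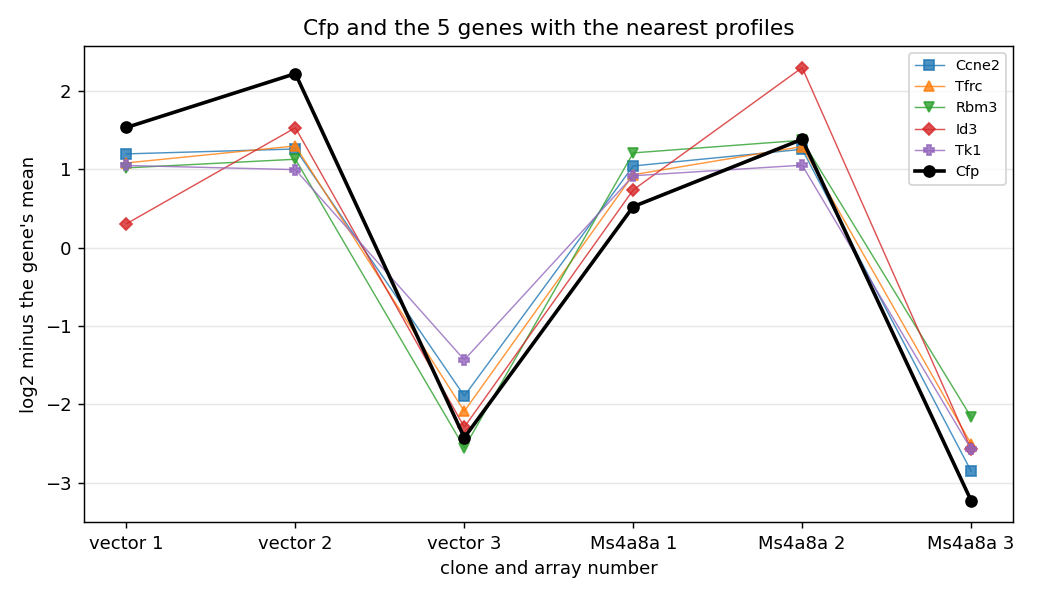
The log2 level minus the gene's own mean over the 6 arrays (vertical axis) is plotted for Cfp (thick line) and the 5 genes with the nearest profiles, with 1 point per array and lines that only join the points of a gene. All 6 genes lie above their mean on the arrays numbered 1 and 2 and below it on both arrays numbered 3, where Cfp lies at -2.43 and -3.23.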

How the data were processed

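Total RNA from 6 samples was made into biotin-labelled cRNA for Affymetrix arrays, per the labels' protocols. The deposited table held log2 values, 1 per probe set and array (17370 probe sets, 64 of them control sets). Once sorted, its 6 columns were identical (largest difference 0), the result of a quantile normalisation. How probes were summarised and background-corrected is not given in the sources used here. Of 16387 probe sets with a gene symbol, 16358 were matched to RefSeq gene IDs of GRCm38.p6, used for names, gene order and start windows.

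The clones were compared with limma 3.58.1 (lmFit, eBayes; R 4.3.3) on all 16387 genes, two-sided, with Benjamini-Hochberg adjustment and a threshold of 0.05, without a block. The alternative with the array number as a block is given beside it, because same-numbered arrays deviated together (correlations 0.709, 0.809 and 0.865), numbers taken from the titles. Deviations within a clone sum to 0, so with number 3 apart, numbers 1 and 2 tend to correlate however they are paired. Their crossed pairs gave 0.713 and 0.617, so these correlations do not settle the pairing of numbers 1 and 2. Rises and falls between the clones are named as such only past that threshold. The script was tested on simulated data. The number of arrays limits the precision, and the spread behind the p-values, taken between arrays, may be technical. The members, the lists and the naming rule were chosen with earlier results of these data known. The rule named the 8 genes, further complement genes past the threshold or at or above the median gene, and the nearest profiles (5 for Cfp, 3 for the C1q mean). Alternatives were arrays left out, filters on low values, cyclic loess scaling, array weights, a variance trend and other pairings.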

Additional observations from a re-analysis of the deposited data

Results flagged for a closer look

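Of the complement genes named, C1qa was the 1 whose array number 3 lay above both other arrays in the vector clone and below both in the Ms4a8a clone. The shift from the mean of numbers 1 and 2 was 0.24 with the vector and -0.33 with Ms4a8a. The gap between arrays 1 and 2 was 0.27 and 0.12, and the difference between the clones in this shift was not tested.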

How the results depend on the processing

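Over 127 refits of the 8 clone differences, 4 passed the threshold, all for Cfp with the replicate block (adjusted p from 0.00733 to 0.0470). The differences were -0.88 with all arrays, -0.92 on numbers 1 and 2 alone with the block, and, in fits chosen after the data were seen, -0.82 without number 1 and -0.91 without number 2. Each of these fits called 1 member, against 0 without the block. In the same order, they called 149, 434, 101 and 104 of all 16387 genes, against 7 without the block. Exchanging numbers 1 and 2 of the Ms4a8a clone, also chosen later, ended the call (0 members). Leaving out 1 array at a time without the block gave differences of -2.32 to 0.51 for Cfp, -0.237 to -0.0207 for C1qa, -0.0505 to -0.00513 for C1qb, -0.0207 to 0.0850 for C1qc, -1.18 to 0.34 for C3, -0.0243 to 0.126 for Cfb, -0.54 to 0.40 for C3ar1 and -0.42 to 1.28 for C5ar1, with 0 members and 0 genes of the wider list called. The sign of Cfp turned without vector array 2 (0.0050) or Ms4a8a array 3 (0.51), and that of C5ar1 without vector array 1 (-0.15) or Ms4a8a array 3 (-0.42). Each such fit leaves the number 3 arrays unbalanced between the clones.

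Signs of differences that passed in no fit also turned. With array weights, C1qa was 0.0442, Cfb -0.0931 and C3ar1 0.229. On numbers 1 and 2 alone, with or without the block, C1qa was 0.0593, Cfb -0.0444 and C3ar1 0.293. In the blocked fits, C1qb was 0.0146 and Cfb -0.00732 without number 2, and C1qc was -0.0208 without number 1. Of the wider list, 1 gene passed on numbers 1 and 2 alone with or without the block (Clu), 1 without number 1 with the block (Itgam) and 1 without number 2 with the block (Clu). Over all genes 7 passed without the block, 0 to 8 with 1 array left out, 1 with only genes from the median level up, 47 with array weights, 147 on numbers 1 and 2 alone, 149 with the block, 434 on numbers 1 and 2 alone with the block, 101 without number 1, 104 without number 2 and 67 with the exchanged numbers. Filters on low values, scaling and the variance trend called 0 members, all in fits without the block. They were not run with the block, so they do not bear on the blocked call of Cfp. Of the members, the filter at the median level kept only Cfp and C5ar1, and that at the 25th percentile left out the C1q chains. Members left out by a filter could not be called there. At a limit of 0.5 log2 units, 1522 genes in place of 459 read lower on number 3 in both clones. Against number 1 or number 2 alone the drop of Cfp was -3.96 and -4.65 in the vector clone and -3.75 and -4.61 in the Ms4a8a clone, the counts of 1 member and 0 wider genes stayed, and all genes gave 421 and 497. Cyclic loess moved the median of no array by more than 0.05 and gave 380 genes.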
